A study of Homo sapiens with 10 samples.

Results

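SK-OV-3 and OVTOKO, human ovarian cancer cell lines, were compared directly by nanopore long-read RNA sequencing. The members are 2 of the 10 libraries of the series, 1 PromethION library of each line, selected from the labels, which name the line and the sequencer. The 2 PromethION libraries of IGROV-1, another ovarian adenocarcinoma line, showed how far libraries of 1 line differ. The labels give no treatment, genotype or passage for any line, and nothing says that the replicates of IGROV-1 came from separate cultures, so their spread may be technical. The full series holds 7 ovarian cancer lines sequenced to benchmark a tool for long-read transcript quantification.

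As background, SK-OV-3 is a widely used ovarian adenocarcinoma line known for amplification of ERBB2, which encodes the receptor tyrosine kinase HER2. OVTOKO comes from a clear cell carcinoma of the ovary, a tumour type known for oxidative stress and glycolytic genes and for inflammatory cytokines. A long read can cover a transcript from end to end, so it measures both the level of a gene and the share of each of its splice forms.

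The SK-OV-3 library held 1974467 counts and the OVTOKO library 1729782, against 2341102 and 2328087 in the IGROV-1 libraries. Levels are CPM, counts scaled to the library total, which are not divided by transcript length and so compare 1 gene between libraries, not genes with each other. A gene with no count could have up to 3 counts, which is 1.52 CPM in SK-OV-3 and 1.73 CPM in OVTOKO, and this limit covers counting error only. Mitochondrial ribosomal RNA took 3.29% of the counts in SK-OV-3, 2.68% in OVTOKO, and 9.13% and 10.95% in the IGROV-1 libraries.

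Of the epithelial keratins, KRT8 and KRT18 were well detected in both lines. KRT8 had 248.7 CPM in SK-OV-3 and 133.5 CPM in OVTOKO, and KRT18 had 309.5 and 314.5 CPM. KRT7 and KRT19 were low in OVTOKO, at 14.5 and 0.578 CPM, against 363.1 and 223.4 CPM in SK-OV-3. The Mullerian transcription factor gene PAX8 was at 84.1 and 234.1 CPM. The adhesion gene CDH1 (E-cadherin) was at 5.06 and 2.31 CPM, and MUC16, which encodes the antigen CA125, and WT1 had no count in either. Of the 11 blood cell markers measured, 10 had no count in each line, PTPRC (CD45) among them. Of 8 endothelial markers, 6 had no count in each line, and the list summed to 49.6 CPM in SK-OV-3 and 13.3 CPM in OVTOKO. Of 9 fibroblast and mesothelial markers, 3 had no count in SK-OV-3 and 6 in OVTOKO, with sums of 90.7 and 12.7 CPM.

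The lines differed in far more genes than replicate libraries of 1 line did. A gene was set aside as past the 4-fold rule when log2((CPM + 1)/(CPM + 1)) was at least 2 or at most -2, among genes with at least 10 CPM in 1 of the libraries. Of 9275 such genes, 730 were past it with the higher level in SK-OV-3 (7.87%) and 445 with the lower level (4.8%). The same rule on the IGROV-1 replicates gave 3 of 8199 genes (0.0366%), NPPC, PRRX2 and THBS1. The median absolute log2 ratio was 0.7 between the lines and 0.19 between the replicates. Some genes were detected in 1 line only: 219 genes had at least 10 CPM in SK-OV-3 and no count in OVTOKO, 81 showed the reverse, and no gene did so between the IGROV-1 libraries. Close to the threshold, 78 genes lay within 0.1 log2 inside it and 104 within 0.1 log2 outside. With edgeR's effective library sizes the split became 562 higher and 566 lower, because all ratios shift by -0.305 on the log2 scale.

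**Figure D1:**
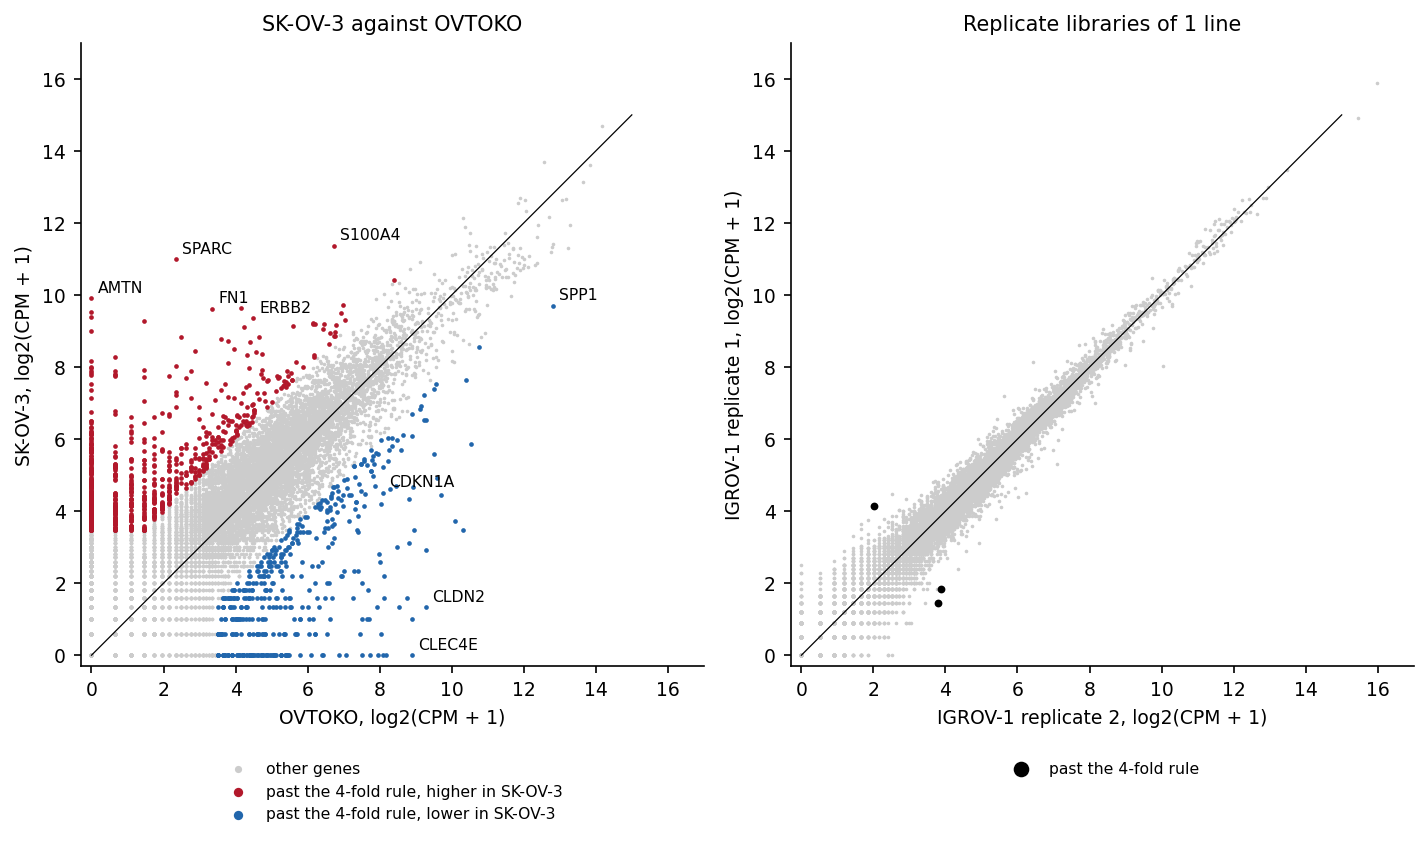
Gene levels in log2(CPM + 1), 1 point per gene, for SK-OV-3 (vertical) against OVTOKO (horizontal) on the left and for the IGROV-1 PromethION replicates on the right. Coloured points on the left are the 730 and 445 genes past the 4-fold rule, and black points on the right are the 3 genes past it between replicates.

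The edgeR quasi-likelihood test was fitted over all 10 libraries in 8 groups of line and instrument, with only SK-OV-3 and OVTOKO contrasted. Each line has 1 library, so the residual spread comes from the PromethION and MinION replicates of IGROV-1 (2 residual degrees of freedom), and SK-OV-3 and OVTOKO are assumed to vary like them. At a Benjamini-Hochberg adjusted p under 0.05, 1677 of 13030 genes were higher in SK-OV-3 (12.9%) and 1797 lower (13.8%). These shares are the base for the counts of gene lists given below. The lists were chosen with earlier results of these data known, so those counts describe the lists and test nothing. Scaling by library totals gave 2514 higher and 1293 lower instead. The count fell to 1258 without IGROV-1 MinION replicate 1, to 2018 without MinION replicate 2 and to 784 with DESeq2. It was 0 with only the 4 PromethION libraries in edgeR, where 4295 genes had an unadjusted p under 0.05 and the lowest adjusted p was 0.055. No gene of the 3474 called changed direction in any of these fits, and 1154 of the 1175 genes past the 4-fold rule were called.

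The largest ratios toward SK-OV-3 were those of 12 genes. AMTN (ENSG00000187689, chromosome 4, 70518540 to 70532742), which encodes the enamel protein amelotin, reached 960.3 CPM in SK-OV-3, with no count in OVTOKO or either IGROV-1 library, at least 553.7-fold higher than in OVTOKO. NUPR1, a stress-response chromatin protein, had 730.8 CPM against 0, and 2.99 and 3.01 CPM in IGROV-1. SPARC (ENSG00000113140, chromosome 5, 151661096 to 151687165), a collagen-binding secreted protein, had 2042.6 CPM against 4.05 CPM, with no count in IGROV-1. SK-OV-3 thus stood far above the other libraries for all of these genes. CD70, a ligand of the tumour necrosis factor family, had 625.0 CPM against 1.73 CPM, a ratio of 360.4 with a counting interval of 123.0 to 1749.8. The cell cycle gene CCNA1, the prostacyclin synthase gene PTGIS and TUSC3, an oligosaccharyltransferase subunit, had 286.7, 256.8 and 226.9 CPM in SK-OV-3 and no count in OVTOKO. The other genes among the 12 with the largest ratios were PPP1R1B, MMP1, MMP2, COL5A1 and COL1A1, described with their groups below. The edgeR quasi-likelihood adjusted p of the 12 lay between 1.8e-05 (NUPR1) and 0.0033 (COL1A1), and CCNA1 alone lost its call with DESeq2 (adjusted p = 0.18).

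In the other direction, the largest ratios lay toward OVTOKO. CLEC4E (ENSG00000166523, chromosome 12, 8533305 to 8540963), the pattern recognition lectin Mincle, had 472.3 CPM in OVTOKO and no count in SK-OV-3 or IGROV-1, at least 310.9-fold higher in OVTOKO. CLDN2 (ENSG00000165376, chromosome X, 106900164 to 106930861), a pore-forming tight junction claudin, had 624.4 CPM in OVTOKO and 1.52 CPM in SK-OV-3, a ratio of 410.9 with a counting interval of 140.2 to 1995.7. SAA1, an acute-phase serum protein, had 260.1 CPM in OVTOKO and 0.506 CPM in SK-OV-3. PLAC8 had 245.1 CPM in OVTOKO against 0, and LY6K, a cell surface protein, 180.9 CPM against 0. SRGN, which encodes the granule proteoglycan serglycin, had 435.9 CPM in OVTOKO and 2.03 CPM in SK-OV-3. The hyaluronan-binding inflammatory protein gene TNFAIP6 had 133.0 CPM and the uroplakin UPK1B 116.2 CPM in OVTOKO, with no count in SK-OV-3. MT1E, CXCL5 and the long noncoding RNA LINC02274 were also among the leading genes. In IGROV-1 these 11 genes were at 1.29 CPM (SAA1) or less. Their edgeR quasi-likelihood adjusted p lay between 2.2e-05 (PLAC8) and 0.00023 (TNFAIP6).

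ERBB2 (ENSG00000141736, chromosome 17, 39687914 to 39730426) was far higher in SK-OV-3 than in the other libraries. It had 654.9 CPM in SK-OV-3, 21.4 CPM in OVTOKO, and 26.1 and 39.9 CPM in the IGROV-1 libraries. SK-OV-3 lay 30.6-fold above OVTOKO (edgeR quasi-likelihood log2 difference 4.63, SE 0.31, adjusted p = 5.5e-05). Of 16 tested genes next to ERBB2 on 17q12-q21, 10 were higher and 1 was lower in SK-OV-3, with a median log2 difference of 1.77 against 0.0 over all genes tested. PPP1R1B, which encodes the phosphatase inhibitor DARPP-32, had 675.6 CPM against 0 in OVTOKO and in both IGROV-1 libraries, at least 389.6-fold. STARD3, a cholesterol-binding endosomal protein, had 329.2 CPM against 25.4 CPM, and MIEN1 had 487.2 against 98.3 CPM. GRB7, an adaptor that binds HER2, had 86.1 CPM against 19.7 CPM, and PGAP3, which remodels GPI anchors, had 89.6 against 13.3 CPM. MED24, a Mediator subunit, was the single member lower in SK-OV-3, at 12.7 against 22.5 CPM. When IGROV-1 MinION replicate 1 was left out, 6 of these neighbours were called higher and none lower, and with DESeq2 3 and none.

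Receptors and ligands of the ERBB family were called in both directions. Over the family list of 11 tested genes, 3 were called higher and 4 lower in SK-OV-3. The shares over all genes tested were 12.9% and 13.8%. EGFR, the receptor of epidermal growth factor, had 33.9 CPM in SK-OV-3 against 82.7 CPM in OVTOKO, with 35.0 and 40.8 CPM in IGROV-1 (edgeR log2 difference -1.59, SE 0.23, adjusted p = 0.0021). The EGFR ligand TGFA was at 20.8 against 46.8 CPM, the ligand EREG at 1.52 against 18.5 CPM, and NRG1, a ligand of ERBB3 and ERBB4, at 6.58 against 20.2 CPM, all called lower. ERBB4 had 10.6 CPM in SK-OV-3 and no count in OVTOKO, at least 6.13-fold, while IGROV-1 had 35.0 and 53.3 CPM. ERRFI1, a feedback inhibitor of EGFR, was also called higher, at 59.8 against 19.1 CPM. ERBB3 was near the detection limit in both lines, at 0.506 and 2.31 CPM. The family without MinION replicate 1 had 1 call higher and 2 lower, and with DESeq2 1 higher and 0 lower, the call of EGFR lost.

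A chosen set of DNA damage response genes was lower in SK-OV-3 wherever its members were called. Many of them arrest the cell cycle, repair DNA or start apoptosis. They were listed as targets of a single pathway, so they do not stand for the whole response. Of 29 listed genes tested, 21 were called lower in SK-OV-3 and 0 higher by the edgeR quasi-likelihood test, and the median log2 difference was -1.66 against 0.0 over all genes tested. In 17 of those 21 the SK-OV-3 library was below all 3 other libraries. CDKN1A (ENSG00000124762, chromosome 6, 36676460 to 36687339), the cell cycle inhibitor p21, had 21.8 CPM in SK-OV-3, 270.6 CPM in OVTOKO, and 288.3 and 417.5 CPM in IGROV-1. OVTOKO and IGROV-1 lay together well above SK-OV-3. Its log2 difference was -3.94 (edgeR SE 0.41, adjusted p = 0.00042).

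SK-OV-3 was also the lowest library for most other genes of the list. The cyclin G gene CCNG1 had 48.1 CPM in SK-OV-3 against 238.8 CPM, the DNA damage recognition gene DDB2 4.05 against 27.7 CPM, and the exonuclease gene AEN 3.04 against 31.8 CPM. Genes of apoptosis were among them: BAX had 42.5 against 109 CPM, BBC3 (PUMA) 9.12 against 30.6 CPM, and the death receptor FAS 6.58 against 40.5 CPM. MDM2, a ubiquitin ligase, had 24.8 against 58.4 CPM. PLK2 differed in that IGROV-1, at 53 and 69.2 CPM, lay with SK-OV-3 (54.7 CPM) and not with OVTOKO (321.4 CPM). SPATA18 and EDA2R had counts in OVTOKO only, at 7.52 and 6.36 CPM. GDF15 (140.3 against 85.6 CPM), GADD45A (83.1 against 61.3 CPM) and PLK3 (29.4 against 12.1 CPM) were among the 8 members not called. With library totals as the scale, 18 members were called lower and 1 higher, and when MinION replicate 1 was left out 11 were lower and 0 higher.

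**Figure D2:**
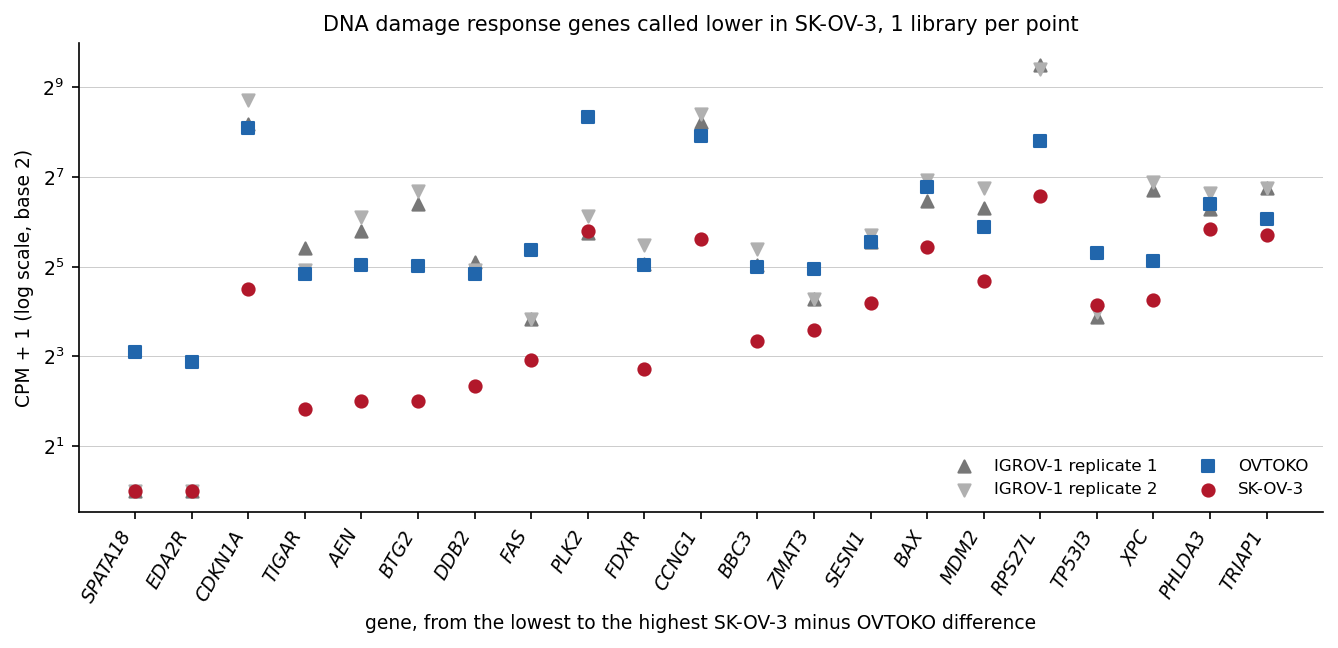
Levels of 21 DNA damage response genes called lower in SK-OV-3, as CPM + 1 on a log scale, 1 point per library, with genes ordered by the SK-OV-3 minus OVTOKO difference. SK-OV-3 (circles) lies below OVTOKO (squares) for every gene drawn, and below the IGROV-1 libraries (triangles) for all but 4 genes, PLK2, SPATA18 and EDA2R among them.

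Of the other regulators of the G1 phase, 3 were called higher and 3 lower among 18 tested, shares near the 12.9% and 13.8% over all genes tested, and with DESeq2 0 and 1. CDKN2A, which encodes the inhibitors p16 and p14ARF, had 1 count in SK-OV-3 and none in OVTOKO, against 62.4 and 75.6 CPM in IGROV-1, and CDKN2B had no count in either line. CCND3, a D-type cyclin, had 30.4 CPM in SK-OV-3 against 222.6 CPM in OVTOKO. The inhibitor CDKN1C (p57) had 26.8 against 1.16 CPM, higher in SK-OV-3. CCND3 and CDKN1C were the members still called without MinION replicate 1.

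Clear cell carcinoma markers were mostly higher in OVTOKO. Of 18 tested, 10 were called lower in SK-OV-3 and 1 higher, with a median log2 difference of -1.97. SPP1 (osteopontin) had 828.6 CPM in SK-OV-3 against 7190.5 CPM in OVTOKO, but its IGROV-1 libraries, at 281.9 and 84.6 CPM, spread widely and its edgeR adjusted p of 0.025 reached 0.2 in an alternative fit. ANXA4, an annexin linked to this tumour type, had 494.3 against 1960.4 CPM. The mitochondrial superoxide dismutase SOD2 had 185.4 against 751.0 CPM, and the plasma glutathione peroxidase GPX3 had 0 against 43.9 CPM, at least 28.9-fold. TFPI2, a protease inhibitor, was the exception, at 323.6 CPM in SK-OV-3 and 19.1 CPM in OVTOKO. The split without MinION replicate 1 was 8 lower and 1 higher.

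Inflammatory genes formed a second group higher in OVTOKO. Of 24 tested chemokines, cytokines and NF-kB feedback genes, 12 were called lower in SK-OV-3 and 1, CXCL16, higher. The interleukin gene IL6 had 67.6 CPM in OVTOKO and no count in SK-OV-3 or IGROV-1, at least 44.5-fold. IL6 is also among the clear cell carcinoma markers called lower, so the lists overlap. Neutrophil-attracting chemokines were in this group: CXCL5 had 211.0 CPM in OVTOKO against 0, CXCL1 381.6 against 50.6 CPM, and CXCL8 35.3 against 4.56 CPM. CSF1, the macrophage growth factor, had 297.1 against 41.0 CPM, and NFKBIZ, an NF-kB co-regulator, 166.5 against 9.62 CPM. CX3CL1 had 41.0 CPM in OVTOKO and none in SK-OV-3, but 16.2 and 16.8 CPM in IGROV-1. When MinION replicate 1 was left out, 7 of these genes were lower and 0 higher. Markers of blood cells, which also express such genes, summed to 0.506 CPM in SK-OV-3 and 0.578 CPM in OVTOKO.

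Interferon and antigen presentation genes were called in both directions. Of 41 tested interferon-stimulated genes, 11 were called lower and 3 higher in SK-OV-3, against 13.8% and 12.9% over all genes tested. The GTPase GBP2 had 7.6 CPM in SK-OV-3 against 102.3 CPM in OVTOKO. IFITM2, a membrane restriction factor, was higher in SK-OV-3, at 813.4 against 299.5 CPM. Of 19 tested genes of MHC class I presentation, 4 were higher and 3 lower, against 12.9% and 13.8% over all genes tested. B2M, the class I light chain, had 4469.6 CPM in SK-OV-3 against 1273.0 CPM. The peptide-trimming enzyme ERAP1 was lower in SK-OV-3, at 2.03 against 26.6 CPM. With library totals as the scale the interferon genes were 6 lower and 4 higher, and without MinION replicate 1 they were 4 lower and 0 higher, and with DESeq2 3 and 1.

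**Figure D3:**
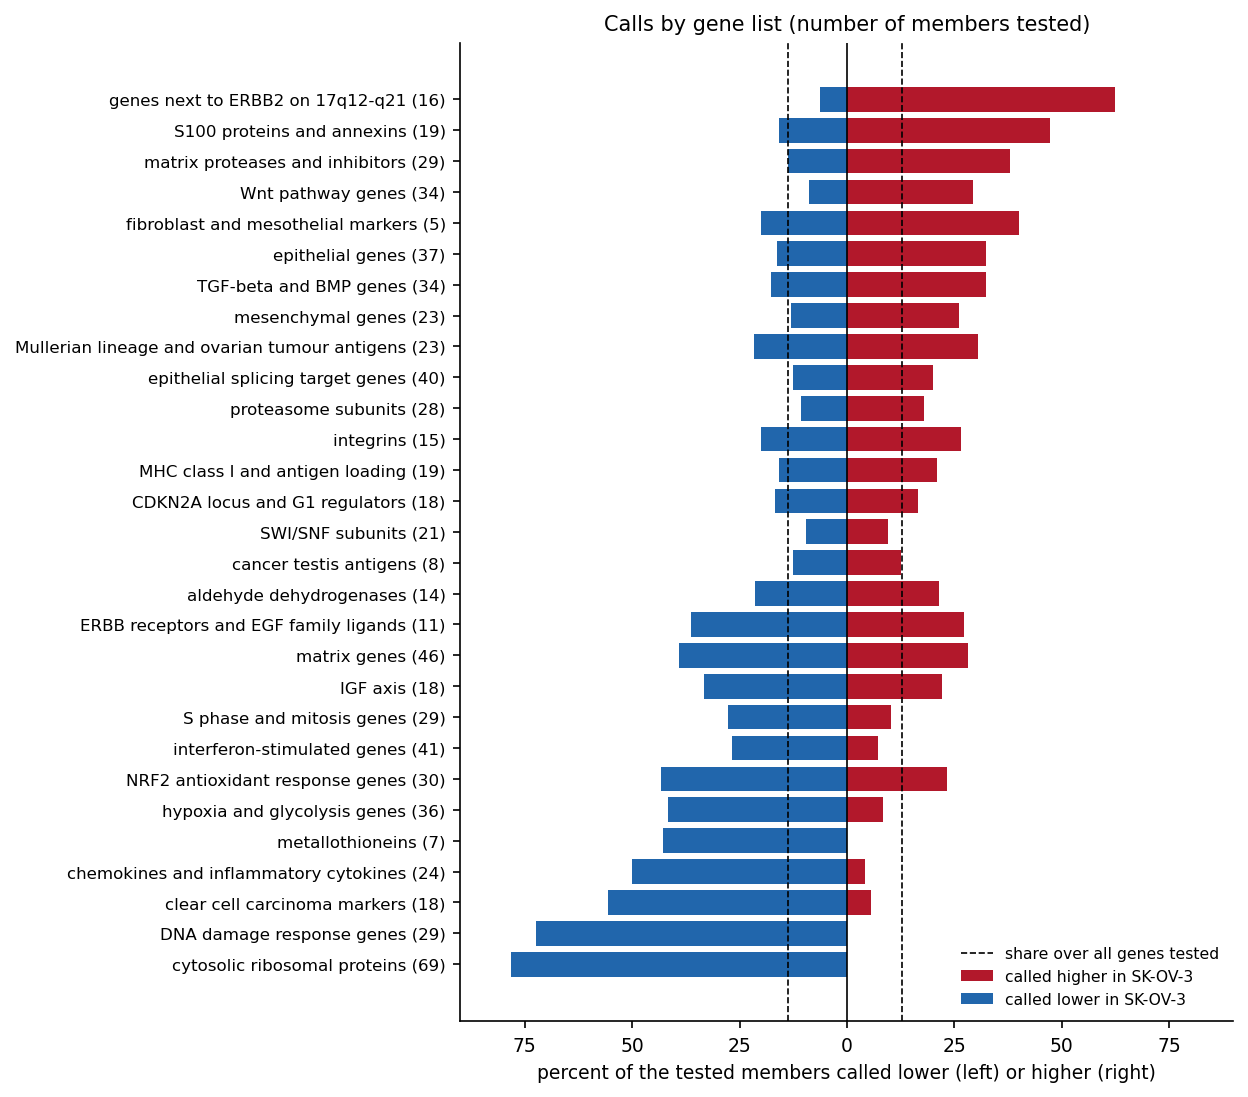
Percent of the tested members of each gene list with at least 5 of them called higher (right) or lower (left) in SK-OV-3 by edgeR, with the number tested in brackets and dashed lines at the shares over all genes tested, 12.9% and 13.8%. The bars of ribosomal proteins, DNA damage response genes, clear cell markers and chemokines extend farthest to the left, and those of the ERBB2 neighbours farthest to the right.

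Matrix genes were called in both directions. Of 46 tested, 13 were called higher and 18 lower in SK-OV-3, against 12.9% and 13.8% over all genes tested. With DESeq2 the calls were 8 higher and 9 lower. COL5A1, COL1A1, COL1A2 and COL3A1, chains of the fibrillar collagens, had 236.5, 219.3, 57.2 and 33.9 CPM in SK-OV-3 and no count in OVTOKO. The fibril-associated COL12A1 had 414.3 against 20.2 CPM, and lumican (LUM), a collagen-binding proteoglycan, 52.7 CPM against 0. The basement membrane genes called lower included LAMA4, with 3.04 CPM in SK-OV-3 against 91.3 CPM, LAMA3, with 9.62 against 57.8 CPM, and the nidogen NID2, with 16.7 against 187.9 CPM. Laminins LAMA5, LAMB1, LAMB2 and LAMC1 were also called lower. LUM and COL3A1 are also defining members of the fibroblast marker list and make up most of its 90.7 CPM in SK-OV-3, while DCN, another member, had 1 count in each line. The part of other cells in these levels was not tested.

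Proteases and mesenchymal genes were more often higher in SK-OV-3. Of 29 tested matrix proteases and inhibitors, 11 were higher and 4 lower. The interstitial collagenase MMP1 had 506.5 CPM in SK-OV-3 and the gelatinase MMP2 252.7 CPM, with no count in OVTOKO or IGROV-1. HTRA1, a secreted serine protease, had 241.1 against 1.73 CPM, from 3 counts, a ratio of 139.0 with a counting interval of 47.3 to 676.4. The stromelysin MMP10 and collagenase MMP13 had 14.7 and 12.2 CPM against 0. Of 23 mesenchymal genes, 6 were higher and 3 lower, and with DESeq2 3 and 0. Fibronectin (FN1) had 782.0 CPM against 9.25 CPM, with 12.8 and 12.9 CPM in IGROV-1 (edgeR quasi-likelihood log2 difference 6.09, SE 0.25, adjusted p = 1.8e-05). N-cadherin (CDH2) and the transcription factors SNAI2 and PRRX1 had 51.7, 32.4 and 22.8 CPM in SK-OV-3 and no count in OVTOKO. Vimentin (VIM) was high in both lines, at 5964.1 and 3662.9 CPM, and was not called (adjusted p = 0.15). Leaving out MinION replicate 1 gave 8 proteases higher and 1 lower, and DESeq2 gave 5 and 2.

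Epithelial genes were also called in both directions. Of 37 tested, 12 were higher and 6 lower in SK-OV-3, against 12.9% and 13.8% over all genes tested. KRT19 had 223.4 CPM in SK-OV-3 and 1 count in OVTOKO, while IGROV-1 had 140.1 and 176.1 CPM, and KRT7 had 363.1 against 14.5 CPM. The surface antigen EPCAM had 45.6 against 8.67 CPM. The junction protein plakoglobin (JUP) had 33.4 CPM in SK-OV-3 against 217.4 CPM, the transcription factor ELF3 18.7 against 82.7 CPM, and the sorting adaptor AP1M2 0 against 83.8 CPM. Of the Mullerian and tumour antigen genes, 7 of 23 tested were higher and 5 lower, against the same shares over all genes. PAX8 was lower in SK-OV-3 (edgeR log2 difference -1.78, SE 0.3, adjusted p = 0.0038), but lost its call when either MinION replicate was left out. In IGROV-1 PAX8 had 210.6 and 134.4 CPM. CLDN16 had 2.03 against 279.8 CPM, and the oestrogen receptor gene ESR1 had 33.9 CPM against 0. Leaving out MinION replicate 1 gave 5 epithelial genes higher and 2 lower, and DESeq2 gave 6 and 4.

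Glycolytic and hypoxia-related genes were mostly lower in SK-OV-3 where they differed. Of 36 tested, 15 were lower and 3 higher, and the split was the same with library totals. GAPDH had 3961.1 CPM in SK-OV-3 against 9905.3 CPM in OVTOKO, the neuron-type enolase ENO2 18.2 against 160.1 CPM, and the lactate dehydrogenase subunit LDHB 454.8 against 1791.0 CPM. The phosphofructokinase PFKM had 6.08 against 38.7 CPM, with 122.6 and 129.7 CPM in IGROV-1. The glucose transporter SLC2A1 (GLUT1) went the other way, at 635.1 against 130.7 CPM. Of the antioxidant genes controlled by NRF2, 13 of 30 tested were lower and 7 higher, and with library totals 9 and 8. SLC7A11, the cystine transporter, had 97.2 CPM in SK-OV-3 and 1.16 CPM in OVTOKO, from 2 counts, a ratio of 84.1 with a counting interval of 23 to 699.5. The aldo-keto reductase AKR1C1 had 289.7 against 779.3 CPM. Metallothioneins MT1E and MT1F, which bind metals, had 1.01 and 3.04 CPM in SK-OV-3 against 479.3 and 181.5 CPM, while MT2A was at 1124.9 and 1453.9 CPM. Leaving out MinION replicate 1 gave 9 glycolytic genes lower and 1 higher.

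Cytosolic ribosomal protein genes were lower in SK-OV-3 as a group. Of 69 tested, 54 were called lower and 0 higher, with a median log2 difference of -1.1, and 65 of the 69 also had the lower CPM without any further scaling. Together they took 10.1% of the counts in SK-OV-3, 18.3% in OVTOKO, and 19.5% and 17.9% in the IGROV-1 libraries, so SK-OV-3 was the library apart. With library totals 46 were called lower and 0 higher, and without MinION replicate 1 35 and 0.

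The differences between the lines were also laid out along chromosomes. Windows of 20 neighbouring expressed genes were summarised by their median log2 CPM ratio, over 8415 windows of 8852 genes. The window medians ran from -1.68 to 2.23 around a median of 0.31, while the IGROV-1 replicates stayed between -0.28 and 0.27. Single genes already differed more between the lines, with a median absolute log2 ratio of 0.7 against 0.19 between replicates. The replicate range therefore cannot show whether differing genes lie together. Grouping by position was not tested. The 3 highest windows that do not overlap were all on chromosome 19, and the 3 lowest were on chromosomes 10, 17 and 12. They were picked for these values, so they are described without a test.

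The highest window, chromosome 19 from 49869033 to 53458261, ran from AKT1S1 to ZNF761. In it 18 of 20 genes had the higher level in SK-OV-3, with a median of 29.6 CPM against 7.52 CPM and 14.7 and 12.9 CPM in IGROV-1. The zinc finger genes ZNF649, ZNF615, ZNF880, ZNF528, ZNF83 and ZNF468 had no count in OVTOKO, with 11.1 to 57.2 CPM in SK-OV-3 and 1.71 to 15.8 CPM in IGROV-1. The other windows on this chromosome were 32597007 to 35279821, with a median of 2.04, and 55600022 to 58213562, with a median of 1.92. The latter is again rich in zinc finger genes, of which ZNF542P, ZNF606, ZNF667 and ZNF667-AS1 had no count in OVTOKO. Reads of ZNF667 and of its antisense partner ZNF667-AS1 cannot be told apart without strand where the genes overlap. Outside the zinc finger genes, EMC10, a subunit of the membrane protein insertase, had 186.4 against 8.09 CPM and FXYD5 252.2 against 19.7 CPM.

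The lowest window lay on chromosome 10 from 97426160 to 100965136, with a median of -1.68. Of its 20 genes 19 were lower in SK-OV-3, such as PGAM1, a glycolytic enzyme, with 148.4 against 600.7 CPM, and MMS19, with 13.2 against 61.9 CPM. The single exception was SCD, the stearoyl-CoA desaturase gene, with 522.2 CPM in SK-OV-3 against 275.8 CPM. The second, chromosome 17 from 7583529 to 15975746 with a median of -1.38, had 19 of its 20 genes lower in SK-OV-3. Among them were TRAPPC1 (71.4 against 256.7 CPM) and MYH10 (16.2 against 77.5 CPM). The third, chromosome 12 from 6852128 to 10223130 with a median of -1.31, holds TPI1, ENO2 and CLEC4E, and all 20 genes were lower in SK-OV-3. Over whole chromosomes the median log2 CPM ratio was highest on chromosome 9, at 0.96 over 363 genes, and lowest on chromosome 7, at -0.36 over 375 genes.

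**Figure D4:**
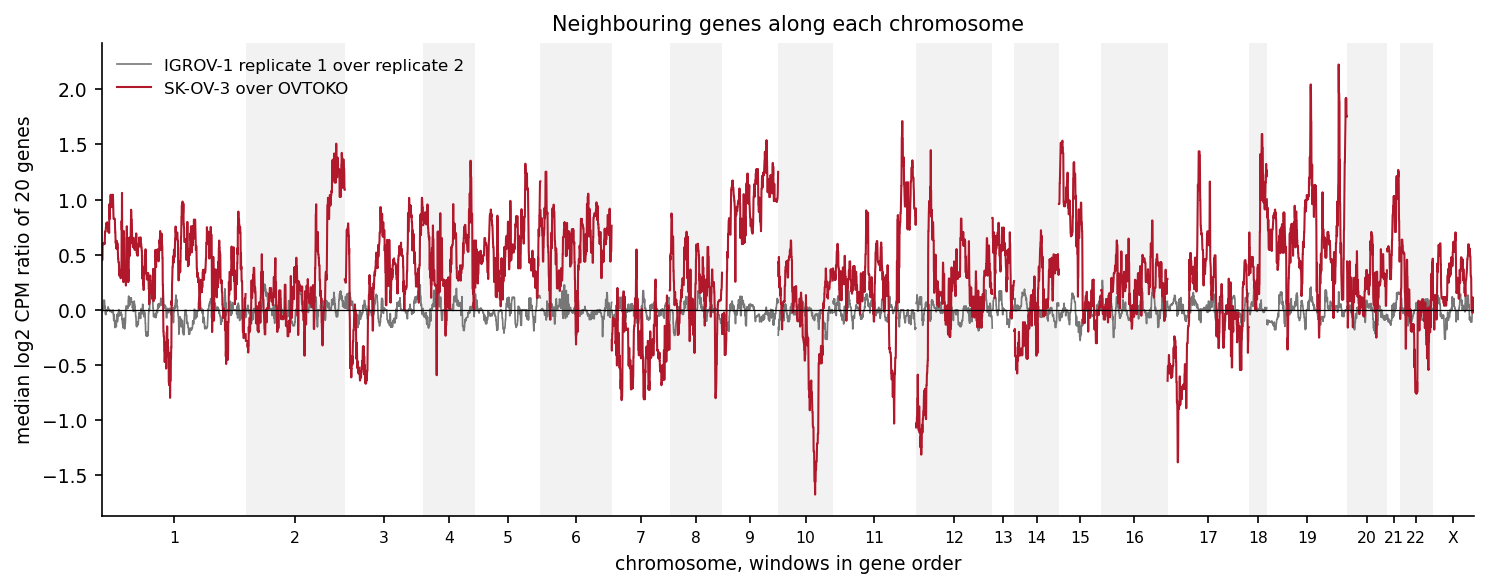
Median log2 CPM ratio of 20 neighbouring genes, window by window in gene order along each chromosome, for SK-OV-3 over OVTOKO (red) and for IGROV-1 PromethION replicate 1 over replicate 2 (grey). The red line reaches 2.23 on chromosome 19 and -1.68 on chromosome 10, and the grey line stays between -0.28 and 0.27.

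With 10 genes a window, the highest median moved to the HOXB cluster on chromosome 17, at 4.07, and this cluster was looked at after that value was seen. HOX genes encode transcription factors that set position along the body axis. The values are given without a test, since they chose the cluster. HOXB6 had 207.7 CPM in SK-OV-3 against 5.2 CPM in OVTOKO, with 47.8 and 41.7 CPM in IGROV-1. HOXB2 had 109.9 CPM against 1 count, a ratio of 190.0 with a counting interval of 33.8 to 7540. HOXB9 had 20.3 CPM against no count, at least 11.7-fold. HOXB7 was the member with a clear level in OVTOKO, at 248.7 against 82.7 CPM. HOXB13, which lies apart from the cluster, was at 6.58 and 4.62 CPM.

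Fewer genes were past the rule for transcript shares than past the 4-fold rule for levels, but the thresholds and filters are unlike. A transcript share is the percent of the counts of its gene, and a gene was past the share rule when a share differed by at least 25 percentage points, among genes with at least 50 counts in each library. Between the lines 100 of 2839 genes were past it (3.52%), and between the IGROV-1 replicates 53 of 3787 (1.4%). Over the 2516 genes in both comparisons the numbers were 84 and 19, and 5 genes were past it in both. The edgeR usage test called 73 of 4730 genes (1.54%), 23 of them among the 100. Leaving out either MinION replicate of IGROV-1 brought that count to 6, leaving out either PromethION replicate brought it to 36, and fitting only the 4 PromethION libraries gave 21. The leading transcript differed in 147 of the 2839 genes (5.18%) and in 153 of 3787 between the replicates (4.04%).

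The ends of the coding sequence show what changes in 3 of the genes whose shares differed. Each line gives the gene, the GENCODE 29 transcript and the line with its larger share, and capitals mark the end of the coding sequence, stop codon included, that the coding sequence of the other transcript lacks. The same bases can lie past the stop codon in that other transcript. The last coding stretches shown for ATP5C1 (chr10:7802840-7807662 and chr10:7802840-7806980, plus strand), MYL6 (chr12:56160306-56160654 and chr12:56160306-56161415, plus strand) and PFN2 (chr3:149966167-149968372 and chr3:149966489-149968372, minus strand) span introns and are on GRCh38.
ATP5C1, ENST00000335698, SK-OV-3: tggtgctgcagctctGTAA
ATP5C1, ENST00000356708, OVTOKO: tggtgctgcagctctGGATTAA
MYL6, ENST00000550697, SK-OV-3: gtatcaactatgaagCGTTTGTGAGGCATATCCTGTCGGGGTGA
MYL6, ENST00000547649, OVTOKO: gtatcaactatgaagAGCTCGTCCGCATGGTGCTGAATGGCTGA
PFN2, ENST00000452853, SK-OV-3: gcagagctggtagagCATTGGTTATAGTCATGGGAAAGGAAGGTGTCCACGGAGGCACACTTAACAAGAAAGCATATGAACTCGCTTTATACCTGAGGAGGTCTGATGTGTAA
PFN2, ENST00000239940, OVTOKO: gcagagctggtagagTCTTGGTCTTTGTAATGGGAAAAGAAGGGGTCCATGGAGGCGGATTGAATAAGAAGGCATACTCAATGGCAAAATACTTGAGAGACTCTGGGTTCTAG

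ATP5C1 (ENSG00000165629), the gamma subunit of mitochondrial ATP synthase, had the clearest difference in usage. The transcript without exon 9, ENST00000335698, took 57.4% of 937 counts in SK-OV-3 (95% Wilson interval 54.2% to 60.5%) and 4.36% of 731 counts in OVTOKO (3.12% to 6.11%). In IGROV-1 its share was 7.14% and 8.47%, so SK-OV-3 stood apart from the other 3 libraries. The transcript with exon 9, a stretch of 37 nt at chromosome 10, 7806974 to 7807010, took 42.6% in SK-OV-3 and 95.6% in OVTOKO. That exon carries the stop codon of its own form, which is 3 coding nt longer (894 against 891 nt). Skipping of this exon is known from heart and skeletal muscle. The level of the gene was not called different (edgeR log2 difference -0.14). The edgeR usage test gave an adjusted p of 0.00012, and it stayed at 0.023 or less in the alternatives with more than 4 libraries. With only the 4 PromethION libraries the call was kept too. Of the 10 genes in the plot of transcript shares, ATP5C1 was the only 1 for which no alternative ended the call.

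Genes of the actin cytoskeleton were among the others. For TPM1 (tropomyosin 1), ENST00000404484 took 55.3% of 422 counts in SK-OV-3 and 3.96% of 437 in OVTOKO, with 9.19% and 8.47% in IGROV-1 (edgeR usage test, adjusted p = 0.003). This transcript starts at another first exon, chromosome 15, 63048471 to 63048707, and lacks the first 2 exons of ENST00000358278, which gives the shorter coding sequence (744 against 852 nt). For MYL6, a myosin light chain, the form with the 45 nt exon 6 took 45.3% of 3720 counts in SK-OV-3 and 13% of 4072 in OVTOKO, with 8.36% and 11% in IGROV-1 (adjusted p = 0.0064 by edgeR). For PFN2 (profilin 2), ENST00000452853 took 91.6% of 837 counts in SK-OV-3 and 61.5% of 316 in OVTOKO, with IGROV-1 between them at 79.2% and 82.3% (edgeR adjusted p = 0.0044). The counting intervals of SK-OV-3 and OVTOKO did not overlap for any of these genes. The genes were chosen for large share differences, so this adds no support. The gene level was also called different for MYL6 (edgeR log2 difference -0.63) and PFN2 (0.91), but not for TPM1 (-0.55). TPM1 and PFN2 lost the call without either MinION replicate (highest adjusted p 0.078 and 0.074), and MYL6 without either PromethION replicate (0.06).

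In FLNA, MTCH1 and LRRFIP1 the forms differ by short coding stretches that keep the reading frame, besides differences at the transcript ends of FLNA and LRRFIP1. The capitals mark the stretch present in 1 of the transcripts, and the lower case letters are the coding bases on either side in the spliced transcript. Positions on GRCh38 are chrX:154357251-154357274 (minus strand) for FLNA, chr6:36972652-36972702 (minus strand) for MTCH1, and chr2:237719523-237719567 and chr2:237720772-237720822 (plus strand) for the neighbouring exons of LRRFIP1.
FLNA exon 29, in ENST00000369856: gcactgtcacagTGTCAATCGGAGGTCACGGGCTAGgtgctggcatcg
MTCH1 exon 8, in ENST00000373627: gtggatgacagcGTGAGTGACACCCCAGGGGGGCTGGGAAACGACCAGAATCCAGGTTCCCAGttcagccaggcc
LRRFIP1 exon 3, in ENST00000244815: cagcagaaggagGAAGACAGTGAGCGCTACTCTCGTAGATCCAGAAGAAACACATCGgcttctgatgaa
LRRFIP1 exon 4, in ENST00000244815: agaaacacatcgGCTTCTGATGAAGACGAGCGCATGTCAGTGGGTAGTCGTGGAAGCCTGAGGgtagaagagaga

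FLNA (filamin A), an actin crosslinker, had the transcript with the 24 nt exon at 68% of 1053 counts in SK-OV-3 and 24.9% of 527 in OVTOKO, with IGROV-1 at 47% and 47.7%. MTCH1, a mitochondrial outer membrane protein, had the transcript with the added 51 nt at 50.3% in SK-OV-3 and 18% in OVTOKO, with 36.4% and 44.3% in IGROV-1. LRRFIP1, a nucleic acid sensor, had the form with exons 3 and 4 at 48.1% in SK-OV-3 and 75.3% in OVTOKO, with 75.1% and 73.2% in IGROV-1. The edgeR usage test gave adjusted p values of 0.033, 0.03 and 0.043, and each rose above 0.05 when any 1 IGROV-1 library was left out (highest 0.14, 0.12 and 0.14). Of the remaining genes, ATXN2L, an RNA-binding stress granule protein, had ENST00000336783, with a longer exon 22, at 23.7% in SK-OV-3 and 80.1% in OVTOKO, with 60% and 52.8% in IGROV-1 (adjusted p = 0.003 by edgeR, up to 0.094 without a MinION replicate). PAPOLA, a poly(A) polymerase, and SNHG8, a small nucleolar RNA host gene, differed by 30.1 and 29.3 points, each with IGROV-1 between the lines. The edgeR usage test gave them adjusted p values of 0.016 and 0.026. Both lost the call when any 1 IGROV-1 library was left out (highest 0.14 and 0.15).

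**Figure D5:**
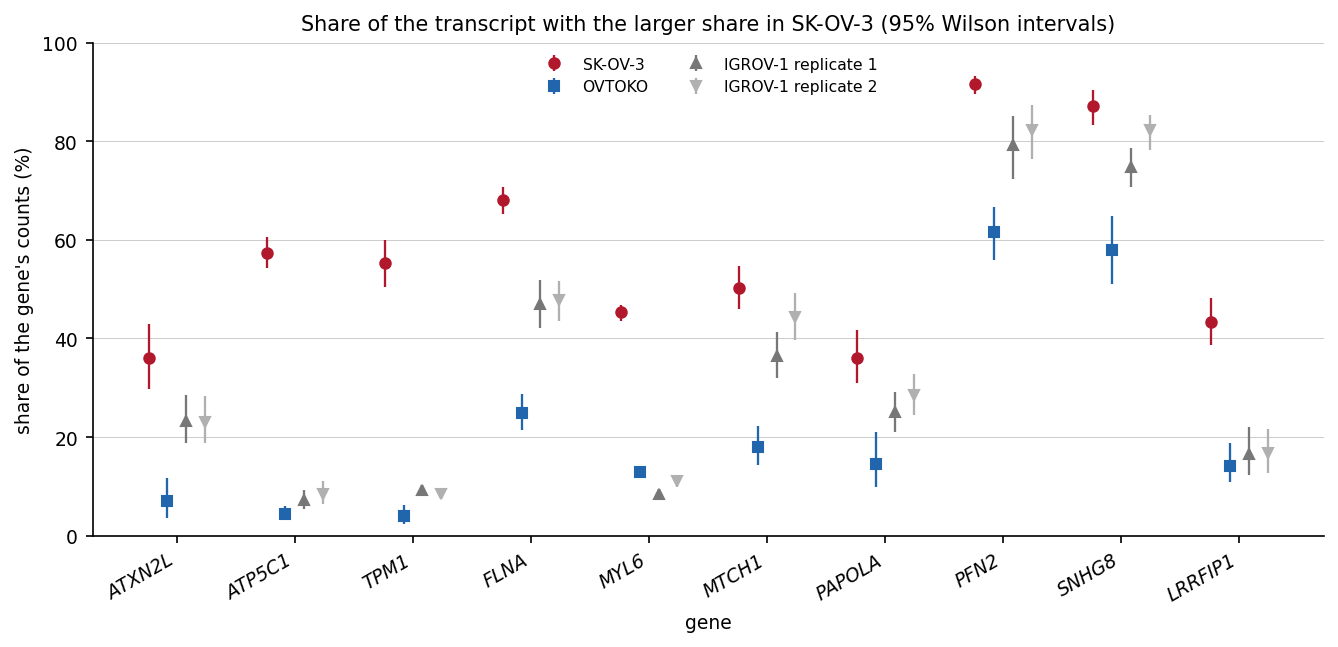
Share of the gene's counts, in percent with 95% Wilson intervals, of the transcript whose share was larger in SK-OV-3, for the 10 genes with the largest differences that the usage test called, among those with at least 100 counts in each line and under 10 points between the IGROV-1 replicates, in SK-OV-3, OVTOKO and both IGROV-1 PromethION libraries. SK-OV-3 is above OVTOKO in all 10 because the transcripts were chosen so, and in ATP5C1, TPM1, MYL6 and LRRFIP1 the IGROV-1 libraries lie near OVTOKO.

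Known targets of the epithelial splicing regulators ESRP1 and ESRP2 were examined as a list, since both lines mix epithelial and mesenchymal genes. ESRP1 had no count in either line, and ESRP2 had 2.03 CPM in SK-OV-3 and none in OVTOKO. Besides TPM1 and MYL6, 3 listed genes were past the share rule. For FGFR1, a fibroblast growth factor receptor, ENST00000619564 took 67.9% of 123 counts in SK-OV-3 and 17.6% of 615 in OVTOKO. However, shares in this gene differed by up to 24.2 points between the IGROV-1 replicates. Its edgeR usage test gave an adjusted p of 0.024, with a highest value of 0.17 over the alternatives with more than 4 libraries. RPS24, a ribosomal protein gene, had the form with the 3 nt exon 5 at 76.4% in SK-OV-3 and 50.1% in OVTOKO. In IGROV-1 this form was at 84.9% and 85.8%. The edgeR usage test for RPS24 gave an adjusted p of 0.043, with a highest value of 0.14 over the same alternatives. PLOD2, a collagen lysyl hydroxylase, had the transcript with the 63 nt exon 14 at 87% of 112 counts in SK-OV-3 and 44.5% of 111 in OVTOKO, was not called by the usage test (adjusted p = 0.13), and had no count in IGROV-1.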

How the data were processed

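Per the labels' protocols, column-purified RNA of each cell line was sequenced on nanopore instruments with a ligation kit. The authors deposited estimated counts per transcript, which need not be whole, and a TPM column that equals CPM to within 5.6e-11; the CPM used here come from those deposited counts. Per the submitters' processing notes, minimap2 2.24-r1122 and GRCh38 were used; no label or file header states the counting settings or the use of strand. The table has 99493 transcripts of 57110 gene identifiers, of which 722 join several genes (5.36% and 5.72% of the SK-OV-3 and OVTOKO counts) and were left out of the shares and of the named genes.

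Counts were summed per gene identifier, rounded and tested with edgeR 4.0.16 (TMM, filterByExpr, glmQLFit and glmQLFTest, diffSpliceDGE for usage; R 4.3.3), with DESeq2 1.42.0 as an alternative; the fits were tested on simulated data. Genes named are the 12 of largest ratio in each direction (at least 100 CPM, called, past the 4-fold rule), up to 4 called members a direction of each of 31 gene lists and the genes they are named for, the 10 called genes with the largest share differences (at least 100 counts in each line, under 10 points between IGROV-1 replicates), and the 3 extreme windows a direction; other list members were added for their roles, and some genes are not reported here. The members and lists were chosen with earlier results of these data known. Of 866 listed symbols 826 were matched. P-values measure only the spread between the IGROV-1 libraries. Alternatives changed the scaling, filters, pseudocount, thresholds, window size and the libraries fitted. Intervals (95%) and the limit of 3 counts cover counting error only. Sequences are from GENCODE 29 transcripts.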

Additional observations from a re-analysis of the deposited data

How the results depend on the processing

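No paired analysis was possible because SK-OV-3 and OVTOKO have 1 library each, which share fewer than 2 replicate numbers. Leaving out 1 IGROV-1 library moved the genes called by edgeR between 1258 and 4139 (3474 in the fit reported) and those called for usage between 6 and 36 (73 in the fit reported). DESeq2 called 784 genes, and edgeR on the 4 PromethION libraries alone, with 1 residual degree of freedom less, called 0 genes and 21 for usage, while a filter at 10 CPM gave 135 for usage. Genes past the 4-fold rule numbered 683 with a pseudocount of 5 CPM, 1788 with no filter, 415 with a filter at 50 CPM and 3221 at 1 on the log2 scale. Genes past the share rule numbered 323 at 20 counts (231 between IGROV-1 replicates), 14 at 200 counts (2) and 15 at 40 points (5). The highest window median was 4.07 with 10 genes, 1.5 with 40 genes and 1.98 with effective library sizes, and the lowest -1.88, -1.37 and -1.96. No named gene changed direction; 86 of the named calls were lost without MinION replicate 1, 58 without MinION replicate 2, 10 without either PromethION replicate, 74 with DESeq2 and 15 with library totals. The cause was not tested. Depth limits genes under about 10 CPM and shares of genes with few counts.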

Other observations

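Receptors of the insulin-like growth factor axis had no count in OVTOKO. In SK-OV-3, IGF1R stood at 18.7 CPM, at least 10.8-fold higher than in OVTOKO, with 2.99 and 3.01 CPM in IGROV-1. INSR stood at 15.2 CPM there, at least 8.76-fold higher, with 15.4 and 10.3 CPM in IGROV-1, and lost its call with DESeq2 and without MinION replicate 1. Binding proteins lay on both sides: IGFBP2 had 14.7 CPM against 0, and IGFBP1, a marker of decidual cells, had 4.05 CPM against 156.1 CPM in OVTOKO. In all, 4 of 18 tested genes of the axis were called higher and 6 lower by edgeR, against 12.9% and 13.8% over all genes tested. Of 34 tested Wnt pathway genes 10 were higher and 3 lower, led by the secreted antagonist SFRP1 (215.2 CPM against 1 count) and the ligand WNT9A (33.4 CPM against 0), but without MinION replicate 1 only 2 were higher and 0 lower. Of 34 TGF-beta and BMP genes 11 were higher and 6 lower: the receptors TGFBR1 and BMPR1B had 22.3 and 14.2 CPM against 0, the latent TGF-beta binding protein LTBP1 234.5 CPM against 1 count, while the signal transducer SMAD3 had 20.8 against 146.3 CPM and the BMP target ID3 23.3 against 313.3 CPM. Without MinION replicate 1 these were 5 and 4.

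S100 proteins and annexins, which bind calcium, were 9 higher and 3 lower of 19 tested, with S100A4 at 2631.1 against 105.8 CPM, and 1 higher and 1 lower without MinION replicate 1. SMARCC1, a core subunit of the SWI/SNF chromatin remodeller, had 2.03 CPM in SK-OV-3 against 40.5 CPM in OVTOKO and 84.6 and 85.5 CPM in IGROV-1 (edgeR log2 difference -4.59, SE 0.43, adjusted p = 0.00027, highest 0.032 over the alternatives with more than 4 libraries), whereas ARID1A was at 37.0 and 26.6 CPM and was not called. Of 21 SWI/SNF subunits tested, 2 were higher and 2 lower. ALDH1A1, an aldehyde dehydrogenase used to mark stem-like ovarian cancer cells, had 2.53 and 5.78 CPM in SK-OV-3 and OVTOKO against 2140.0 and 2066.5 CPM in IGROV-1. ALDH3A1 had 37.5 CPM in SK-OV-3 and no count in OVTOKO, and 3 aldehyde dehydrogenases were higher and 3 lower of 14 tested. Of 29 S phase and mitosis genes, 8 were called lower and 3 higher. PCNA (134.7 against 336.5 CPM), MCM7 (24.3 against 64.7 CPM), TYMS (116.5 against 327.8 CPM) and the mitotic kinase gene AURKB (9.62 against 33 CPM) were called lower. The mitotic genes CDC20 (196.0 against 80.4 CPM), BUB1B (48.1 against 13.3 CPM) and CCNB2 (95.2 against 36.4 CPM) were called higher, but DESeq2 called 0 higher and 4 lower, and the fit without MinION replicate 1 called 0 and 3. Integrins were 4 higher and 3 lower of 15. For each edgeR count in this paragraph, the shares over all genes tested were 12.9% higher and 13.8% lower. Proteasome subunits were 5 and 3 of 28, near the 12.9% and 13.8% over all genes tested, and 11 and 2 with library totals. Cancer testis antigens were 1 and 1 of 8, also near those shares, with PRAME at 45.6 against 223.1 CPM.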
